A study of Homo sapiens with 16 samples.

Results

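The Hippo pathway genes examined here were YAP1, WWTR1, TEAD1, LATS1, LATS2, AMOTL2, NF2, WWC1, CCN1 and CCN2. Their N6-methyladenosine (m6A) peaks were read from MeRIP-seq, in which RNA fragments that carry m6A are pulled down with an antibody (IP) and sequenced beside unenriched RNA (input). Regions were chosen by position alone: every region of the deposited merged list that overlapped the annotated span of 1 of these 10 genes was taken, and 34 of 36970 regions qualified. Across the 8 IP libraries these genes held 182 of 191974 peaks. All samples were wild-type human prostate cancer cells harvested on day 3. C4-2B is sensitive to enzalutamide, an androgen receptor inhibitor, and MDV-R was derived from C4-2B by repeated exposure to the drug and is kept in medium with it. Each line contributed 4 IP and 4 input libraries, and peaks were deposited for each IP library. Since MDV-R is 1 derived line grown in drug, resistance, the line itself and the presence of enzalutamide cannot be told apart.

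Hippo signalling restrains the transcriptional co-activators YAP1 and WWTR1 (TAZ). The kinases LATS1 and LATS2 phosphorylate both co-activators and hold them in the cytoplasm; when the kinases are inactive, YAP1 and WWTR1 enter the nucleus and switch on genes such as CCN1 and CCN2 through TEAD transcription factors. NF2 (Merlin), WWC1 (KIBRA) and the angiomotin-like scaffold AMOTL2 act upstream of or beside these kinases. m6A is placed on messenger RNA by a nuclear methyltransferase, is enriched in long internal exons and around stop codons, and bears on the stability, splicing and translation of the transcripts that carry it. Its usual sequence holds GGAC, in which the A is methylated.

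Short stretches of the reference genome around GGAC at the strongest summits show where these peaks lie. Each is hg38 sequence, 5′ to 3′ on the strand of the gene, with GGAC in capitals. The first set is shown because GGAC ended exactly on the last coding base, so that the stop codon followed it directly.
CCN1 exon 5, chr1:85583026-85583049: acaaatttagGGACtaaatgctac
TEAD1 exon 13, chr11:12937206-12937229: ggcttgtaaaGGACtgaacatggt

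The CCN1 summit lay 14 nt upstream of the A of its motif and the TEAD1 summit 6 nt upstream of it. The second set comes from regions whose IP level differed between the lines and from the strongest region of LATS2.
LATS2 exon 2, chr13:21046022-21046045: aaaggaaactGGACtaacaatgag
LATS2 exon 5, chr13:20983542-20983565: aggccgagagGGACatcctggccg
LATS2 exon 6, chr13:20981619-20981642: atgtcagacaGGACagcatggagc
AMOTL2 exon 2, chr3:134371238-134371261: tggccccagaGGACagtcaggtgc

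In LATS2 exon 2 the A of GGAC lay 7 nt before the first coding base. In LATS2 exon 5 it lay 3 nt from the strongest summit, that of C4-2B replicate 2. Summits of this exon 5 region were up to 340 nt apart between libraries. The third is the coding site of YAP1 nearest to its summit, 11 nt away.
YAP1 exon 9, chr11:102229774-102229797: ggacaaatgtGGACcttggaacac

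Of 142 Hippo gene peaks with an exonic summit, 79 (55.6%) had a GGAC no more than 50 nt from it in the sense direction, compared with 46.1% to 49.3% of all exonic peaks in the 8 lists. Peaks of 1 gene share their site across libraries, so these shares are descriptions. By line, 56.9% of 65 exonic peaks in C4-2B and 54.5% of 77 in MDV-R had the motif. Among 27 intronic peaks 3 had it, where 35.0% to 37.0% of all intronic peaks did. LATS1 exons 4, 5 and 8 had no GGAC in the window although they were called in every library, and neither did the LATS1 region upstream of the start, LATS2 exon 8, NF2 exon 16 or AMOTL2 exon 10. GGAC is 1 form of a broader pattern, DRACH (D is A, G or T, R is A or G, H is A, C or T). All 14 shared exonic regions had DRACH in the window, and its share over all peaks is not given here.

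Depth and background set the frame for the levels below. Each list gives a fold enrichment, the IP pileup at the summit over the local background expected from input. From this value and its p-value the IP fragments at each summit were recovered, and they are given as CPM, the fragments at the summit for every 1000000 IP fragments of the library. IP depth was 0.317 to 0.412 M (mega) fragments in C4-2B and 0.322 to 0.414 M in MDV-R. The IP library amounted to 0.822 to 1.34 times its input in C4-2B and to 0.317 to 0.642 times in MDV-R, so the MDV-R inputs were the deeper ones. C4-2B replicate 1 had the shortest list, with 13191 peaks against 23254 to 30645 in the other 7, and MDV-R replicate 3 had the shallowest input relative to IP of its line. Luminal prostate markers checked the label: all 8 luminal genes had a called region in 7 lists and 6 of them in C4-2B replicate 1, none of 3 basal markers (KRT5, KRT14, TP63) had one in any list, and 1 or 2 of 4 fibroblast markers had one per list, VIM in every list.

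The first question was which Hippo genes carried a peak and where. Of the 34 regions, 32 were called in at least 1 list, and 16 of these 32 were called in all 8 lists. Of all 36076 regions called at least once, 25.9% were called in all 8. The 16 shared regions belonged to 6 genes: 6 to LATS2, 5 to LATS1, 2 to AMOTL2 and 1 each to YAP1, NF2 and CCN1. WWTR1, TEAD1, WWC1 and CCN2 had no region called in every list. The 2 regions called in no list, where 2.42% of all merged regions stood, lay in YAP1 intron 3 and WWC1 exon 1. A region without a call has no level in the list, which is not a level of 0.

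**Figure D1:**
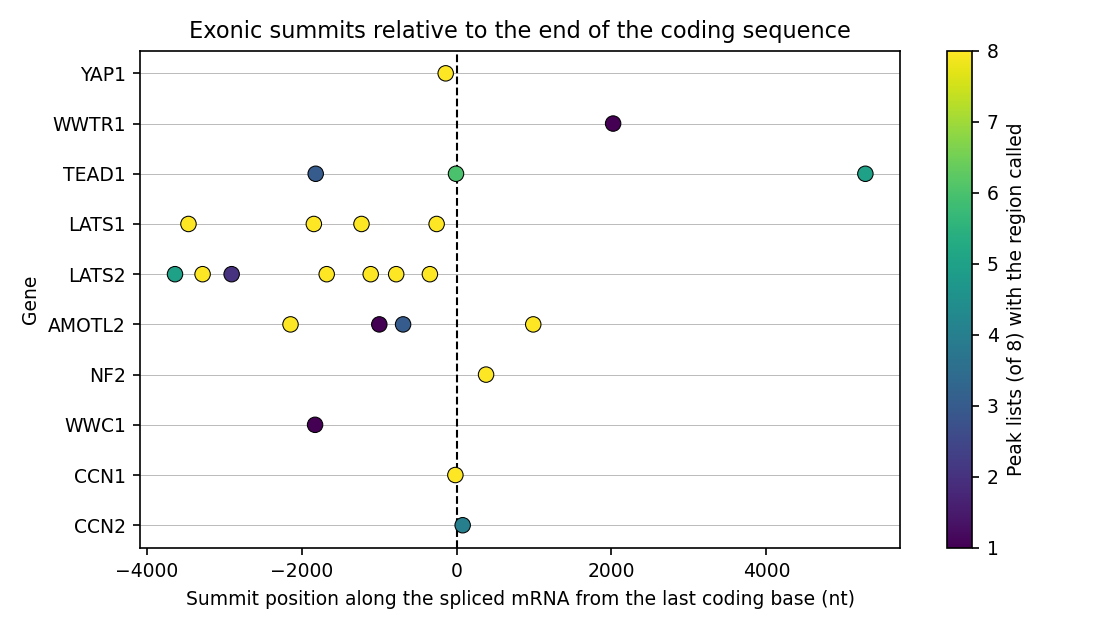
Position of the strongest summit of each called exonic region along the spliced canonical transcript, in nt from the last coding base (dashed line; negative values are upstream), for each of the 10 genes; colour gives the number of peak lists, of 8, in which the region was called. LATS1 and LATS2 carried summits along the coding sequence, while YAP1, TEAD1, CCN1 and CCN2 each had one within 140 nt of its end.

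Most strongest summits fell in exons. In the 32 called regions 15 lay in coding sequence, 5 in 3′UTRs and 4 in 5′UTRs, and the others were in introns, in a non-coding exon of a CCN1 isoform or just outside a gene. Called regions covered the last coding base of 7 genes (YAP1, TEAD1, LATS2, AMOTL2, NF2, CCN1 and CCN2), and 9 of the 10 genes had a called summit in their last exon, all but WWC1. Among the 16 shared regions 10 had a coding summit, 2 a 3′UTR summit and 2 a 5′UTR summit. Shared regions covered the first coding base of LATS1, LATS2 and AMOTL2.

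YAP1, the main co-activator, had its shared region over exon 9, the last (chr11:102229506-102230413), with the strongest summit 140 nt upstream of the last coding base. Fold enrichment there was 3.95, 9.03, 9.64 and 7.12 in C4-2B replicates 1 to 4 and 10.6, 14.7, 6.30 and 17.8 in MDV-R replicates 1 to 4. IP level was 318, 421, 455 and 422 CPM in C4-2B and 424, 447, 355 and 344 in MDV-R, the highest of any Hippo gene region in both lines. Ranked by p-value, the peak stood at the 90.3 to 96.5 percentile of 7 lists and at the 71.2 percentile of the shortest list. The lines overlapped in both measures. A lncRNA on the opposite strand (ENSG00000254422) shares part of the region. A further region straddled the YAP1 start (chr11:102109966-102110518); its summit lay outside the gene, in an antisense lncRNA (ENSG00000277459), and calls came from 2 C4-2B lists and from all 4 of MDV-R.

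WWTR1, the YAP1 paralog, had 1 region, in the 3′UTR (chr3:149518697-149518973), called in C4-2B replicate 3 alone on 4 IP fragments. TEAD1, the DNA-binding partner, had 5 regions, and none was called in C4-2B replicate 1. Its stop codon region (chr11:12937002-12937357) had calls in 2 C4-2B lists and in every MDV-R list, and the IP level where called was 33.9 and 42.8 CPM in C4-2B and 34.1, 34.1, 45.9 and 37.3 in MDV-R. A second region with its summit 5277 nt past the last coding base (chr11:12942222-12942807) was called in 1 and 4 lists. Summits in introns 1 and 2 and in exon 1 had calls in 3 and 3, 1 and 0, and 1 and 2 lists of the sensitive and the resistant line. In intron 1 the called level was 59.3, 79.4 and 66.1 CPM in C4-2B and 34.1, 24.8 and 32.0 in MDV-R.

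LATS1 and LATS2, the paralogous kinases that phosphorylate YAP1 and WWTR1, had the most regions. Both had shared regions with a summit in exons 2, 4, 5 and 8 of their 8-exon canonical transcripts, and LATS2 had further ones in exon 6 and intron 6. Exon 4 is a long internal exon of both, with 1514 nt in LATS1 and 1424 nt in LATS2, and exon 5 measures 583 nt in each. The exon 4 regions covered 1368 nt of that exon in LATS1 and 1396 nt in LATS2. LATS2 exon 2, at the start of the coding sequence (chr13:21045792-21046456), had the highest mean fold enrichment of the shared regions in both lines, 18.6 ± 6.31 in the sensitive and 27.1 ± 9.59 in the resistant line (SD, n = 4). Its values were 12.4, 13.9, 24.4 and 23.7 in C4-2B and 25.2, 38.6, 15.5 and 29.0 in MDV-R, and MDV-R replicate 3 lay inside the C4-2B range.

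The other LATS regions were called in part of the lists. LATS1 intron 5 (chr6:149676627-149677005) and LATS2 exon 1 (chr13:21061351-21062060) were each called in C4-2B replicate 2 and in all 4 MDV-R lists, and LATS2 exon 3 was called in 1 list per line. The remaining shared LATS1 region straddled the start of the gene (chr6:149717661-149718644); its strongest summit lay outside the gene, where a lncRNA on the opposite strand (ENSG00000278899) is annotated, and it is left out of the exonic totals below.

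AMOTL2, a scaffold that binds YAP1 and activates LATS kinases, had a shared region at each end of its coding sequence, in exon 2 and in exon 10. Between them 3 further regions were called in MDV-R alone: exon 7 in 3 lists, intron 2 in 2 lists and exon 6 in 1. Peaks per library numbered 2, 2, 2 and 2 in C4-2B and 4, 4, 2 and 4 in MDV-R. This was the smallest p for peaks per gene among the 10 genes (exact two-sided permutation p = 0.143, adjusted p = 0.659), and MDV-R replicate 3 equalled the C4-2B libraries. No Hippo gene passed in peaks per gene. Of 17062 genes with a peak, 0% passed after adjustment, and 6.42% had more and 1.79% fewer peaks in MDV-R at an unadjusted p under 0.05. A ribosomal protein pseudogene (RPL39P5) lies within the AMOTL2 exon 10 region.

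NF2, which encodes the upstream regulator Merlin, had 1 region, over the stop codon and into the 3′UTR of exon 16 (chr22:29694571-29695812). It was called in all 8 lists, with fold enrichment of 2.73, 4.96, 9.65 and 9.02 in C4-2B and 8.07, 9.07, 5.31 and 9.20 in MDV-R. WWC1, which works with NF2, was called once, in exon 11 in MDV-R replicate 4 (chr5:168423553-168423866; 15 IP fragments, fold enrichment 4.97).

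CCN1 and CCN2, secreted matrix proteins and classical YAP1 targets, both had a region at the stop codon. The CCN1 region (chr1:85582686-85583536) was called in all 8 lists. The CCN2 region (chr6:131948979-131949612) was called in 2 lists of each line, on 25 and 27 IP fragments in C4-2B and on 7 and 8 in MDV-R; it lies inside the antisense gene LINC01013. A second CCN1 region, over the start codon, had calls in 1 list of C4-2B and 2 lists of MDV-R.

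**Figure D2:**
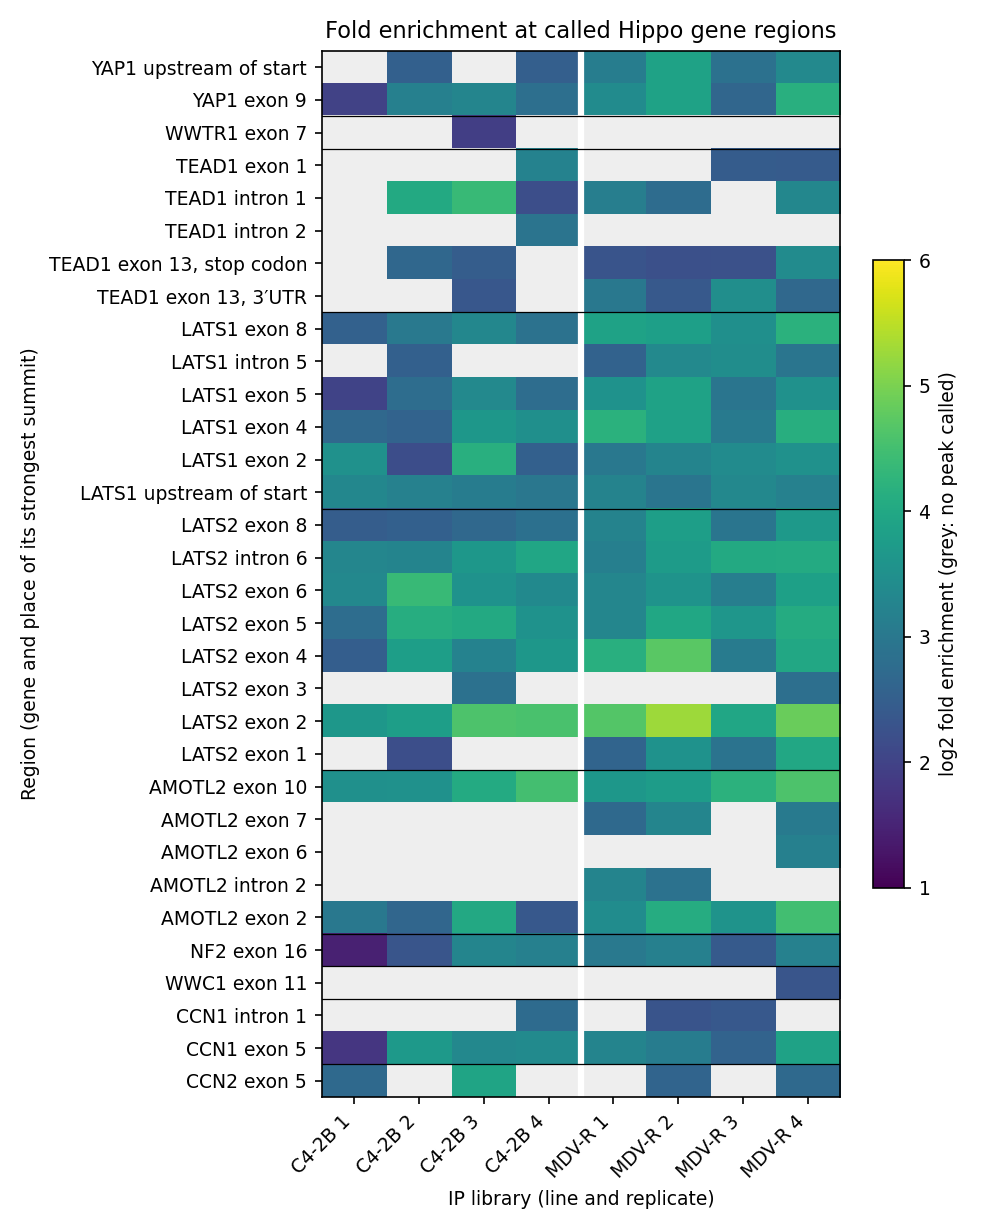
Log2 fold enrichment (colour) of the strongest peak in each of the 32 called regions (rows, in the order of the text) in each IP library (columns); grey marks a library with no peak called. The 16 shared regions form unbroken rows, and the 3 AMOTL2 regions between exons 2 and 10 are coloured in MDV-R alone.

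The second question was whether calls separated the lines. No Hippo region was called in all 4 lists of one line and in none of the other, where 3.68% of all called regions were so for MDV-R and 1.22% for C4-2B, and none passed Fisher's exact test with Benjamini-Hochberg adjustment (0% of all regions did; smallest possible unadjusted p = 0.0286, reached by none of the 32 and by 4.9% of all). Of the 16 partly called regions 11 were called in more MDV-R than C4-2B lists and 2 in fewer. Over all partly called regions the shares were 67% and 24.8%, and these counts are near those shares. Hippo regions numbered 17, 21, 22 and 21 per list in C4-2B and 24, 26, 23 and 28 in MDV-R. When each list was limited to the length of the shortest, the region at the YAP1 start was called in 4 MDV-R lists and no C4-2B list. The share of all regions under that limit is not given here, so this call has no background to be read against.

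The third question was whether the 16 shared regions differed in strength between the lines. limma was fitted to the 9327 regions called in all 8 lists and p-values were adjusted over all of them. Fold enrichment of all regions was higher in MDV-R by a median of 0.44 on the log2 scale, the local background was lower by a median log2 difference of -0.48, and CPM differed by a median of -0.04.

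In fold enrichment no Hippo region passed; with an SE of 0.36 on the log2 scale this fit could miss differences of the size seen here. Of all regions, 3.41% passed as higher in MDV-R and 0.225% as lower; with each library centred on its median, 79 of all regions passed as higher and 167 as lower, in place of 318 and 21. The median log2 difference of the 16 regions was 0.47, next to 0.44 for all, and 15 of 16 were higher in MDV-R, next to 84.2% of all. At an unadjusted p under 0.05 there were 6 of 16 regions, next to 25.3% of all. The largest difference was in LATS1 exon 8 (chr6:149661768-149662422), with fold enrichment of 5.89, 8.10, 9.94 and 7.35 in C4-2B and 14.7, 14.1, 11.2 and 18.3 in MDV-R. Every MDV-R library lay above every C4-2B library there; the log2 difference was 0.90 ± 0.36 (SE; limma adjusted p = 0.107), or 0.47 above the median of all regions. LATS2 exon 8 was the other region without overlap, with 5.58, 5.75, 6.43 and 7.20 in C4-2B and 9.48, 14.0, 7.66 and 12.8 in MDV-R (log2 difference 0.78 ± 0.36, limma adjusted p = 0.156). Of all regions 10.2% were higher in MDV-R without overlap, and 0.943% lower.

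MDV-R replicate 3 decided these calls. Without it 7 Hippo regions passed as higher in MDV-R: YAP1 exon 9, LATS1 exons 8, 5 and 4, LATS2 exons 8 and 4 and AMOTL2 exon 2, with log2 differences of 0.92 to 1.02 and limma adjusted p of 0.0288 to 0.0472. Over all regions 2016 passed as higher and 74 as lower in that fit, in which the median log2 difference of all regions was 0.59. In MDV-R replicate 3 the shared regions had a median fold enrichment of 10.2, compared with 12.8 to 16.6 in the other MDV-R libraries and 7.43 to 11.5 in C4-2B, and their median background was 14.9 times the library average compared with 6.19 to 8.46 and 11.02 to 13.3. Within MDV-R this library also had the shallowest input relative to IP. Its IP library amounted to 0.642 times its input, below the 0.822 to 1.34 times of C4-2B, while its median background was above theirs. The part of input depth in these values was not tested.

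CPM, which do not use the input, gave 5 Hippo regions past the threshold: LATS1 exon 8 and AMOTL2 exon 2 were higher in MDV-R, and CCN1 exon 5, LATS2 exon 5 and LATS2 exon 6 were lower. Over all 9326 regions with this value 14.3% passed as higher and 19.3% as lower, so 2 and 3 of 16 were near the background. Without overlap between the lines, 13.3% of all regions were higher and 14.7% lower. Scaling by average IP coverage in place of fragments turned the split over all regions from 1334 higher and 1799 lower to 1844 and 1370; these 5 regions kept their direction and passed under it. An IP level follows the amount of the transcript as well as its methylation, and in bulk RNA fewer cells with a transcript and less of it per cell cannot be told apart. The background is therefore given beside each.

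CCN1 exon 5 had the lowest p. Its IP level was 131, 152, 159 and 186 CPM in C4-2B and 80.5, 109, 96.6 and 79.98 in MDV-R. All MDV-R libraries lay below all C4-2B libraries, and the level was 1.72-fold lower (log2 difference -0.78 ± 0.17 SE, limma adjusted p = 4.0e-05). The local background was 36.6, 9.77, 13.8 and 16.4 times the library average in C4-2B and 6.04, 10.1, 16.9 and 3.71 in MDV-R, with a log2 difference of -1.10 ± 0.50 that did not pass (limma adjusted p = 0.141). Fold enrichment was 9.20 ± 4.03 and 9.74 ± 3.63 (SD, n = 4). The stop codon site of CCN1 thus yielded fewer IP fragments in MDV-R at a fold enrichment that overlapped that of C4-2B.

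AMOTL2 exon 2 (chr3:134370761-134371730) had 75.3, 73.4, 94.7 and 59.8 CPM in C4-2B and 115, 118, 118 and 120.0 in MDV-R. The lines did not overlap, and the level was 1.57-fold higher in MDV-R (log2 difference 0.65 ± 0.17 SE, limma adjusted p = 0.000785). Background at the site was 7.35 ± 3.18 times the average in C4-2B compared to 6.34 ± 2.96 in MDV-R (SD, n = 4). Fold enrichment was 8.05, 6.30, 16.2 and 5.21 in C4-2B and 10.7, 17.2, 11.9 and 22.3 in MDV-R, where C4-2B replicate 3 lay inside the MDV-R range. The AMOTL2 exon 10 region (chr3:134356387-134357938) reached over the stop codon, but its strongest summit lay in the 3′UTR, 990 nt past the last coding base. Its summits were up to 940 nt apart between libraries. IP levels there were 109, 110.1, 122 and 135 in C4-2B and 149, 174, 150 and 136 in MDV-R, also without overlap. This region did not pass (log2 difference 0.35 ± 0.17 SE, limma adjusted p = 0.103).

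LATS1 exon 8, the last exon, had 112, 133, 131 and 151 CPM in C4-2B and 207, 208, 164 and 155 in MDV-R. The lines did not overlap, by 151 against 155 at the nearest, and the level was 1.39-fold higher in MDV-R (log2 difference 0.47 ± 0.17 SE, limma adjusted p = 0.0201). Without MDV-R replicate 1 or replicate 2 it did not pass (adjusted p = 0.0928 and 0.0643). Background was 15.5 ± 3.64 times the average in C4-2B compared to 11.7 ± 3.14 in MDV-R (SD, n = 4).

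LATS2 exon 5 (chr13:20983191-20984072) had 153, 206, 177 and 208 CPM in C4-2B and 149, 140, 123 and 109 in MDV-R, without overlap and 1.43-fold lower in MDV-R (log2 difference -0.51 ± 0.17 SE, limma adjusted p = 0.0105). LATS2 exon 6 (chr13:20981214-20981930) had 68.0, 110.1, 67.2 and 91.3 in C4-2B and 49.5, 68.2, 45.9 and 64.0 in MDV-R. There MDV-R replicate 2 lay above the lowest C4-2B libraries, and the level was 1.47-fold lower (log2 difference -0.55 ± 0.17 SE, limma adjusted p = 0.00542). Summits of the exon 6 region were up to 194 nt apart between libraries. The exon measures 183 nt, so not every library's level was taken inside it. At both regions the background overlapped between the lines and did not pass. At exon 5 it was 19.97, 9.77, 8.26 and 16.4 times the library average in C4-2B and 13.3, 6.07, 9.38 and 5.03 in MDV-R (log2 difference -0.70 ± 0.44 SE, limma adjusted p = 0.285). At exon 6 it was 3.90, 2.78, 3.14 and 6.57 in C4-2B and 2.42, 3.03, 3.75 and 2.47 in MDV-R (log2 difference -0.43 ± 0.40 SE, limma adjusted p = 0.490). The IP level of both regions lost the call without C4-2B replicate 2 (adjusted p = 0.0566 for exon 5 and 0.0959 for exon 6); exon 5 also lost it without MDV-R replicate 4 (0.0565) and exon 6 without MDV-R replicate 3 (0.0602).

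**Figure D3:**
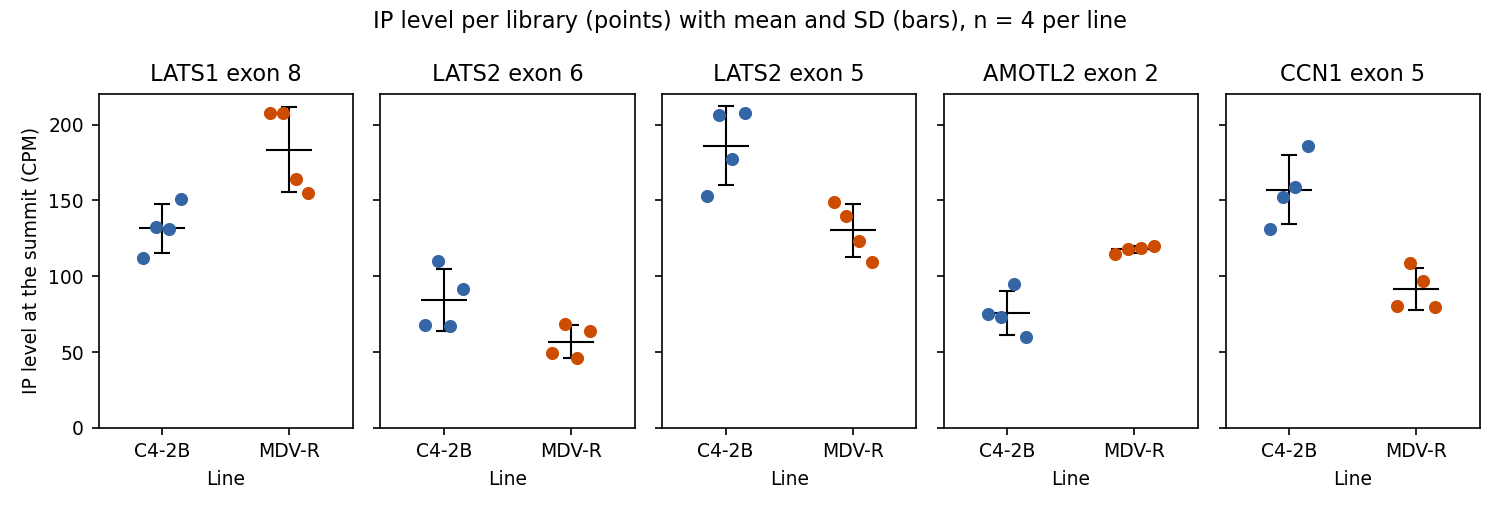
CPM at the summit of the 5 Hippo regions that passed the threshold, 1 point per IP library, with the mean and SD (n = 4 per line). LATS1 exon 8 and AMOTL2 exon 2 lie higher in MDV-R, LATS2 exons 5 and 6 and CCN1 exon 5 lower, and the lines overlap in LATS2 exon 6 alone.

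The kinase paralogs stood on opposite sides of 0 in the difference in IP level. All 5 shared LATS1 regions had a log2 difference in IP level above 0, from 0.02 to 0.47, and all 6 shared LATS2 regions had one below 0, from -0.55 to -0.18. The signs held with median centring and per average IP coverage. With single libraries left out, all 6 LATS2 regions stayed below 0, while LATS1 exon 2 fell to -0.06 without C4-2B replicate 1, to -0.08 without C4-2B replicate 2 and to -0.06 without MDV-R replicate 3. Without MDV-R replicate 3 the region at the LATS1 start was also below 0, at -0.05, which left 3 LATS1 regions above 0. Regions of 1 gene share its transcript and are not independent, and this pair was set side by side after its values were seen, so no test is given. Summed over 4 exonic regions, LATS1 had 461, 545, 651 and 677 CPM in C4-2B and 799, 807, 666 and 632 in MDV-R. Summed over 5 exonic regions, LATS2 had 687, 929, 788 and 879 in C4-2B and 663, 701, 645 and 632 in MDV-R. A region counted as exonic by its strongest summit, and not every summit of the LATS2 exon 6 region lay in that exon. The ratio of LATS2 to LATS1, from which the library size drops out, was 1.49, 1.70, 1.21 and 1.30 in C4-2B and 0.829, 0.869, 0.967 and 1.00 in MDV-R. Ratios of other gene pairs were not computed, so these values describe this pair alone. Fold enrichment did not split the pair in this way. Its log2 differences ran from 0.03 to 0.90 in LATS1 and from -0.20 to 0.78 in LATS2. The geometric mean over LATS1 exonic regions was 6.49, 6.24, 12.2 and 7.575 in C4-2B and 12.6, 13.0, 9.33 and 14.4 in MDV-R. Over LATS2 exonic regions it was 7.70, 13.2, 12.3 and 12.1 in C4-2B and 13.3, 19.3, 10.2 and 17.0 in MDV-R. Log2 differences in background ran from -0.42 to 0.42 in LATS1 and from -1.21 to -0.43 in LATS2.

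**Figure D4:**
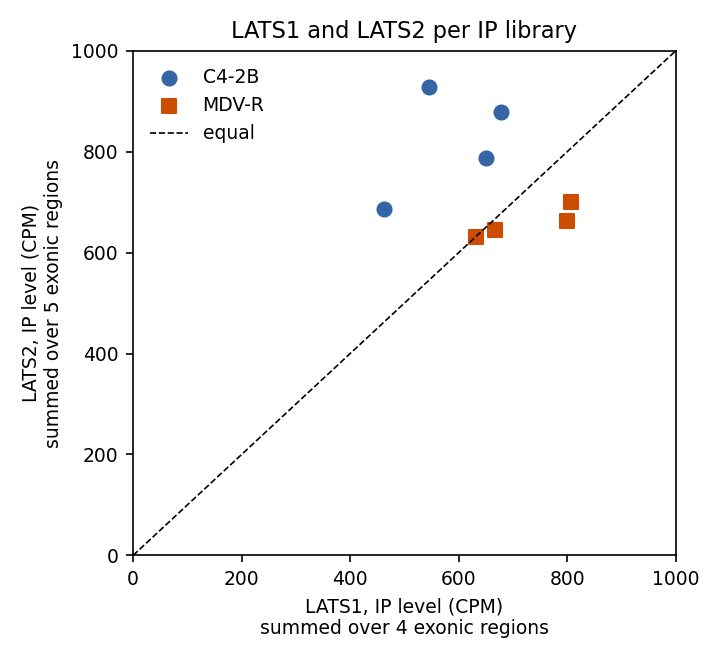
Summed CPM of the shared exonic regions of LATS1 (horizontal, 4 regions) and LATS2 (vertical, 5 regions), 1 point per IP library, with the line of equality dashed. The C4-2B libraries lie above the line, at ratios of 1.21 to 1.70, and the MDV-R libraries on or below it, at 0.829 to 1.00.

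No Hippo region passed in the local background. This value is only an approximate stand-in for transcript abundance near the summit and is known at called peaks alone. Over all regions 1.66% passed as higher in MDV-R and 11% as lower. The median log2 difference of the 16 regions was -0.48, and it was -0.48 for all regions. The lowest p was that of LATS2 exon 8, with 19.97, 24.4, 19.3 and 19.7 times the library average in C4-2B and 9.67, 7.08, 15.01 and 8.66 in MDV-R (log2 difference -1.10 ± 0.39 SE, limma adjusted p = 0.0687). Here the lines did not overlap, and 15.5% of all regions were lower in this way and 2.09% higher. Without MDV-R replicate 3 the background passed as lower in MDV-R at 5 regions: YAP1 exon 9, LATS2 exons 8, 4 and 2 and CCN1 exon 5 (limma adjusted p of 0.00934 to 0.0481), and 2886 of all regions were then lower.

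**Figure D5:**
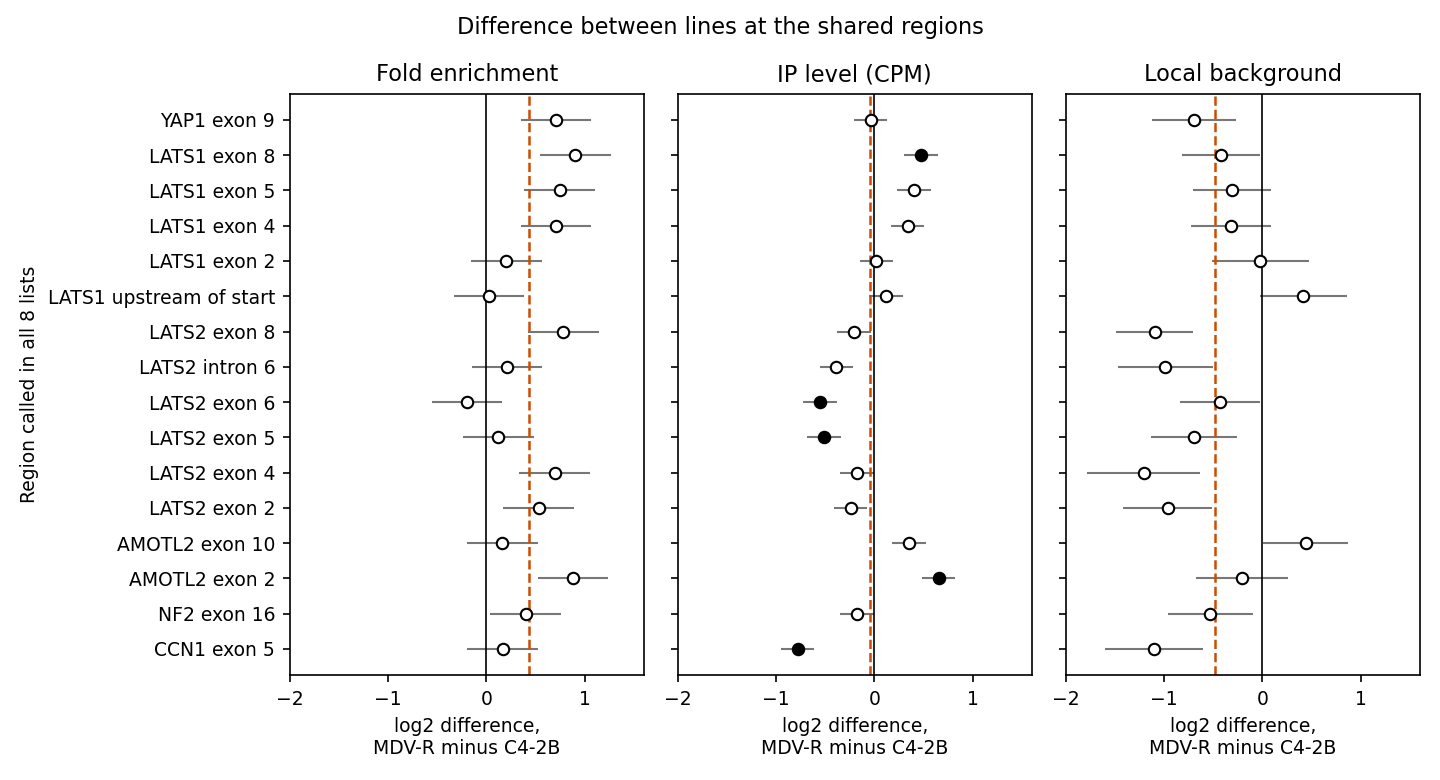
Log2 difference (MDV-R minus C4-2B, with SE, n = 4 per line) in fold enrichment, CPM and local background at the 16 shared Hippo regions; filled points passed the adjusted threshold, and the dashed line is the median of all shared regions. Fold enrichment and background scatter around medians of 0.44 and -0.48, and the 5 filled points are all in the middle panel.

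Other genes of the pathway were counted from lists of regulators and of reported targets. Among 26 further regulators and TEAD partners, 22 had a called region and 14 had one in all 8 lists, while MOB1A, MOB1B, FAT4 and TEAD3 had none. Of their 21 shared regions none passed in fold enrichment, 1 passed as higher and 6 as lower in IP level (14.3% and 19.3% of all regions), and 3 passed as lower in background (11% of all). The higher one lay in an intron of SAV1, an adaptor of the MST kinases, where the level rose from 109 ± 12.7 to 152 ± 7.49 CPM (SD, n = 4; limma adjusted p = 0.0155). The 3 lower in background, which were also lower in IP level, were 2 regions of TAOK3, a kinase upstream of the MST kinases, and 1 of the cadherin DCHS1. DCHS1 fell from 166 ± 33.4 to 69.1 ± 4.35 CPM (SD, n = 4; limma adjusted p = 9.05e-12), and an antisense lncRNA overlaps its region. Among 16 further reported targets 14 had a region, and ANKRD1 and AXL had none. Of their 8 shared regions none passed in fold enrichment, 3 passed as higher in IP level and 1, in FJX1, as lower in background, next to the same 14.3% and 11%. The 3 were 1 region of IGFBP3, a binding protein of insulin-like growth factors, and 2 of ARHGEF17. IGFBP3 rose from 161 ± 30.8 to 334 ± 49.6 CPM (SD, n = 4; limma adjusted p = 8.31e-09). These genes were named after their values were seen.

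Of the 118 called regions of both lists, 3 (2.54%) were called in all MDV-R lists and no C4-2B list, a share below the 3.68% of all called regions, and none the other way. The region in the coding sequence of VGLL4 (chr3:11558063-11558946), a TEAD cofactor that competes with YAP1, had fold enrichment of 3.96 ± 0.845 in MDV-R (SD, n = 4) at a background of 32.3 ± 10.7 times the average. The coding region of the reported target CCDC80 (chr3:112638197-112639994) had 11.1 ± 1.19 at a background of 3.78 ± 0.589. The third lay in an intron of AJUBA (chr14:22978373-22979083), a LATS-binding LIM protein, with 9.62 ± 1.75 at 3.62 ± 1.45; another protein-coding gene on the same strand overlaps it. Fisher's exact test gave p = 0.0286 for each before adjustment, and none passed after it.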

How the data were processed

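The authors aligned MeRIP-seq reads to hg38 with STAR 2.7.0, kept unique reads without duplicates (SAMtools 1.10) and ran MACS2 3.0.0a6 for each IP library against input. The deposited lists hold, per peak, a fold enrichment (ratio), −log10 p-value, −log10 q-value and a score; the deposited merged list holds positions alone, and how it was merged is not given in the sources used here. The methods name an extension of 100 nt, but the shortest peak (239 to 293 nt by list) and the steps of the background both gave a fragment length per list, which was used.

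IP fragments and local background were solved from fold enrichment and p-value (99.98% to 100% of peaks), assuming the stated genome size of 300 Mb. A region was called by an overlap of 1 bp and took the strongest peak of each list, at that list's own summit. Between libraries, summits of a shared Hippo region were 18 nt (YAP1 exon 9) to 940 nt (AMOTL2 exon 10) apart at most. Summits were classed with GENCODE 44. limma 3.58.1 compared log2 values. For fold enrichment and IP level its prior degrees of freedom were infinite, so these regions share 1 SE. With 4 libraries per line, the replicates' origin (culture or aliquot) is not stated, and p-values measure the spread between libraries. In the limma fits of fold enrichment and IP level that spread is pooled over all tested regions, not taken from each region. Titles of MDV-R samples carry another line's name; the cell line field was followed. All 10 genes and each region were named; genes of the other lists were named if called in 4 against 0 lists or past the threshold in fold enrichment, and some with no region or past it in another measure were named after their values were seen. Members and lists were chosen with earlier results of these data known. On simulated data the fit for fold enrichment missed most changes of the size seen at Hippo regions and recovered most larger ones.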

Additional observations from a re-analysis of the deposited data

Results flagged for a closer look

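In each line the 4 libraries of the 16 shared regions were checked for a library far from the other 3, in 96 sets of values, and 6 stood out. Chance gives about 1 in 20 such sets. In MDV-R replicate 3 the local background was the high value 3 times: 18.8 times the library average in LATS1 exon 5, where the next library had 11.1, 6.05 in the region at the LATS1 start (next 3.03), and 39.4 in NF2 exon 16 (next 18.6). In C4-2B replicate 2 the high values were all in LATS2: a background of 24.4 in exon 8 (next 19.97), a fold enrichment of 20.7 in exon 6 (next 11.6), and 203 CPM (IP fragments per 1000000 of the library) in exon 4 (next 148).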

How the results depend on the processing

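Levels rest on 14 to 149 IP fragments at the summit of shared regions and on as few as 4 in partly called ones, and intervals for counting error were not added to the spread between libraries. Regions called in part of the lists could not be compared in level. With lists of equal size 12 Hippo regions were called in all 8 lists, in place of 16. The 5 regions that passed in IP level kept their direction under every alternative run. CCN1 exon 5 (log2 difference -0.87 to -0.70 with each library left out) and AMOTL2 exon 2 (0.55 to 0.77) also passed in each limma fit. LATS1 exon 8 (0.40 to 0.55) and LATS2 exons 5 (-0.60 to -0.43) and 6 (-0.65 to -0.41) each lost the call in 2 of those fits. The exact permutation test gave its smallest possible p, 0.0286 before adjustment, at CCN1 exon 5, AMOTL2 exon 2, LATS1 exon 8 and LATS2 exon 5. At LATS2 exon 6 it gave an unadjusted p of 0.0857.

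Hippo regions that passed as higher in IP level numbered 5 with median centring and 5 per average IP coverage, in place of 2. With each library left out they numbered 1 to 3. Those that passed as lower numbered 5 with median centring, in place of 3, and 1 to 5 with each library left out. Of all 9326 regions, 2169 were higher and 2518 lower with median centring, and 1844 and 1370 per average IP coverage. With each library left out, 1085 to 1410 of all regions were higher and 1453 to 2555 lower. A prior that follows the mean level gave 3 and 3, next to 1333 and 1860 of all regions. Regions higher in fold enrichment numbered 0 to 7 and regions lower in background 0 to 5 with each library left out, where MDV-R replicate 3 gave the 7 and the 5. Over all regions these counts ran from 23 to 2016 and from 410 to 2886. Regions called in every list of one line and none of the other numbered 1 with lists of equal size and 0 to 2 with each library left out: LATS1 intron 5 and LATS2 exon 1 without C4-2B replicate 2, the TEAD1 3′UTR without C4-2B replicate 3 and AMOTL2 exon 7 without MDV-R replicate 3. Shares over all regions under these settings are not given here, so these counts are not a result about Hippo genes. With GGACT in place of GGAC 21.1% of exonic Hippo peaks had the motif near the summit, next to 16.3% to 18.1% of all exonic peaks. With a window of 25 nt the shares were 34.5% and 27.7% to 30.1%. Both searches are narrower by construction. Over all regions, fold enrichment without the caller's added 1 gave 79 higher and 3 lower, and the exact permutation test gave none after adjustment (11.1% at an unadjusted p under 0.05). The prior, the IP coverage scale and the ratio without the added 1 were chosen after seeing the data. In other cases the cause was not tested.

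Same-numbered libraries of the lines did not deviate together (correlations from -0.0749 to 0.0251), so the number was not taken as a pairing. With the replicate number as a block, 0 Hippo regions passed in fold enrichment, 2 as higher and 3 as lower in IP level and 0 in background, as without it; over all regions fold enrichment gave 418 higher and 30 lower.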
